A study of Homo sapiens with 6 samples.

Results

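Zinc finger genes of the ZNF series were followed in the established human line MOLM-14, derived from an acute myeloid leukaemia with the MLL-AF9 fusion, after exposure for 3 h to 25 nM cortistatin A (CA) or to its solvent DMSO. CA is a natural steroidal alkaloid that inhibits CDK8 and CDK19, the kinases of the Mediator complex. There were 3 CA and 3 DMSO samples, each on 1 Affymetrix U133 Plus 2.0 array, and both groups were the same unedited cell line in the same medium. Members were genes whose symbol begins with ZNF and a digit. Each gene was read at its brightest probe set, and it was kept when the mean of its 3 DMSO arrays was at least 8 on the log2 scale. This gave 104 members of 502 measured ZNF genes and of 19775 genes in all. Of the members, 101 were protein coding, 1 was a transcribed pseudogene (ZNF271P) and 2 were antisense RNAs (ZNF232-AS1 and ZNF407-AS1), which bear a ZNF symbol and encode no zinc finger protein.

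Most ZNF genes encode C2H2 zinc finger proteins, in which a row of short modules, each folded around a zinc ion, reads DNA. Many of these also carry a KRAB domain, which recruits the corepressor TRIM28 and the histone methyltransferase SETDB1 and silences retroelements and other loci. Messenger RNAs of this family are known as a group for fast turnover, so that a general loss of transcription is expected to lower them early. The comparison of CA with DMSO was therefore read as a test of whether short-lived transcripts of this class were depleted at 3 h. The values are relative, because the deposited arrays were normalised to one another. A loss of RNA shared by all genes would not be visible in them.

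The 6 arrays had median log2 values between 5.03 and 5.08, and pairwise correlations over genes lay between 0.997 and 0.999. CA replicate 3 stood apart, at 33.8 on the first principal component against -12.8 to 6.44 for the other arrays. Of 12 measured myeloid markers, CEBPA, FLT3, LYZ and PTPRC had DMSO means of at least 8, while SPI1, MPO, CSF1R and CD14 lay between 3.80 and 6.32. Means over the marker list lay between 7.64 and 7.69 per DMSO array and between 7.70 and 7.80 per CA array. Among 10 genes that mark lymphoid cells only PAX5 reached 8, at 9.54, and 0 of 7 erythroid and megakaryocyte and 0 of 11 epithelial and fibroblast markers did. Since the wells were plated in triplicate and the labels name no separate cultures, the spread behind the p-values may be technical. In bulk RNA, fewer cells that express a gene and less of its RNA per cell cannot be told apart.

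Promoter windows were taken from RefSeq (GRCh38.p14; 250 bases before to 50 after the annotated start), matched by gene number for 95 of the 104 members. Those of 4 members are shown, because their CA and DMSO values differed most clearly among members with a single window: ZNF804A (chr2:184598279-184598578, + strand) and ZNF184 (chr6:27473056-27473355, - strand) were lower in CA, and ZNF217 (chr20:53593790-53594089, - strand) and ZNF189 (chr9:101398601-101398900, + strand) were higher. Each is written 5′ to 3′ on the strand of the gene. Capitals mark matches on either strand to the GC box GGGCGG, the CCAAT box and the ETS motif CCGGAAG.
ZNF804A: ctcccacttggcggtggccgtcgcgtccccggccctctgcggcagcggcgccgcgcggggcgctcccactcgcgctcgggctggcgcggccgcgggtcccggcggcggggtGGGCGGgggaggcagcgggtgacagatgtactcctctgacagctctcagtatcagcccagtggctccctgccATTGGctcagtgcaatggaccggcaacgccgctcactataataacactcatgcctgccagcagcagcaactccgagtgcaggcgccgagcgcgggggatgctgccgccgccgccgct
ZNF184: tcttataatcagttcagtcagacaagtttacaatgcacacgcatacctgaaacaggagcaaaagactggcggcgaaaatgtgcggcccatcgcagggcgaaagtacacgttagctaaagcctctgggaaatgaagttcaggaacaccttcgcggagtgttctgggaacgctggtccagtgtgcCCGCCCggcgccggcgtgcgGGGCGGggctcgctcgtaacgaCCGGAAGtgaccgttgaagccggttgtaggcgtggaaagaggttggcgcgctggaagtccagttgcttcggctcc
ZNF217: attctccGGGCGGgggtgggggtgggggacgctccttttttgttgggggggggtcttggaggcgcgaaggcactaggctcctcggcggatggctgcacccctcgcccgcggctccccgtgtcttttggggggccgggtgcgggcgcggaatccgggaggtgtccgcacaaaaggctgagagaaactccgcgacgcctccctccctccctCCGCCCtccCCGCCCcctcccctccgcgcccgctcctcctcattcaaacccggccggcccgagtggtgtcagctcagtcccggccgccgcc
ZNF189: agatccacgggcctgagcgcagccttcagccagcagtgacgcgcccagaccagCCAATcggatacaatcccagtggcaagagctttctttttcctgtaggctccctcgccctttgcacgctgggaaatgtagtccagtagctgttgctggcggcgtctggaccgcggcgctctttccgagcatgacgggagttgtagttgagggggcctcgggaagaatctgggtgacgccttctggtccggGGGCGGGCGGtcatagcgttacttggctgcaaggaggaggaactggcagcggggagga
The windows had GC contents from 57.7% (ZNF184) to 72.3% (ZNF217 and ZNF804A), beside a median of 62.8% in the members. The letters TATAAA were absent from them. The GC box was found 3 times in that of ZNF217, 2 times in that of ZNF184, 2 times, sharing letters, in that of ZNF189 and 1 time in that of ZNF804A. The CCAAT box was found in ZNF804A and ZNF189, and the ETS motif in ZNF184.

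No member passed the test between CA and DMSO. In limma, with Benjamini-Hochberg adjustment over all genes, 0 of 104 members reached an adjusted p under 0.05, where 0.895% of all genes (0.839% higher, 0.0556% lower) and 1.88% of the genes with a DMSO mean of at least 8 (1.79% higher, 0.0839% lower) did. At an unadjusted p under 0.05, 7 members were higher and 5 lower in CA, against 7.09% higher and 4.5% lower over all genes, and 10.8% and 4.7% among the genes with a DMSO mean of at least 8. The median log2 change of the members was -0.0081 (quartiles -0.072 and 0.047), with 50 members above 0 and 54 below. It was 0.0037 over all genes and 0.011 over the 5963 genes with a DMSO mean of at least 8. The difference between members and other genes was not tested, because the members were chosen by level on the same DMSO arrays. That choice can favour genes whose DMSO values happen to be high. With the mean over all 6 arrays in its place, 103 genes were members, 0 passed, and the median was 0.00023.

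**Figure D1:**
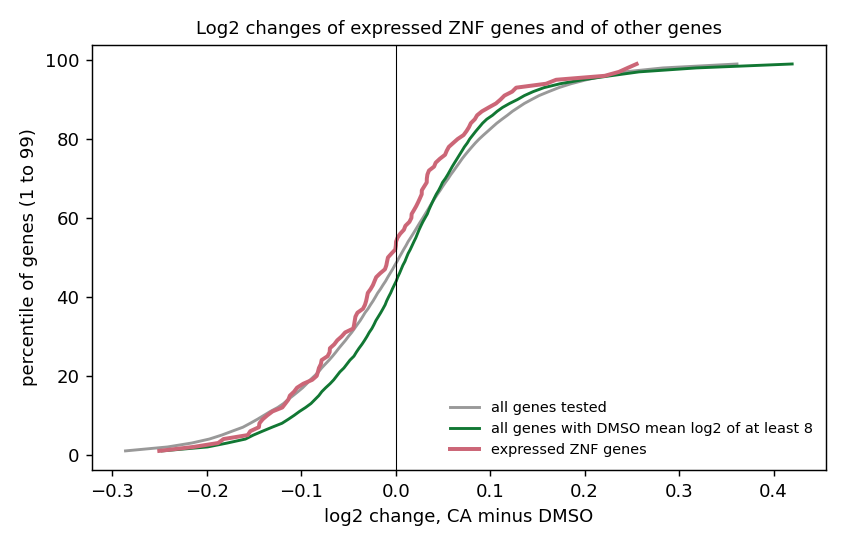
Percentiles 1 to 99 of genes (y axis) by log2 change, CA minus DMSO (x axis), for the 104 expressed ZNF genes (red), the 5963 genes with a DMSO mean log2 of at least 8 (green) and all 19775 genes (grey). The red curve crosses 0 near its middle, with a median of -0.0081, and the green one has a median of 0.011. At percentile 25 the red curve lies near the grey one, at -0.072 and -0.067, with the green one at -0.044. At percentile 75 it lies left of both, at 0.047 against 0.065 (green) and 0.070 (grey).

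The count depended on the fit. When limma modelled the spread by intensity and robustly, it called ZNF217, ZNF503 and ZNF521 higher and ZNF804A lower, among 2.76% of all genes. With the fit limited to genes of mean log2 of at least 6, ZNF217, ZNF521 and ZNF804A passed, among 5.08% of the genes fitted. ZNF804A was a member by its DMSO mean but not by the mean over all 6 arrays. The share among genes with a DMSO mean of at least 8 was not counted for either fit. All other settings tried gave 0 members past the threshold.

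The intervals limit how large a depletion these arrays allow for single members. The 95% confidence interval of the change lay above a 1.5-fold fall in 104 of 104 members and above a 1.2-fold fall in 82 of 104. It lay below a 1.5-fold rise in 104 and below a 1.2-fold rise in 93. These intervals are per gene and carry no adjustment over genes. Estimates themselves were small, with 72 members within 0.1 of 0 on the log2 scale and 4 beyond 0.25. The 4 were ZNF518A, ZNF804A, ZNF217 and ZNF587B.

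**Figure D2:**
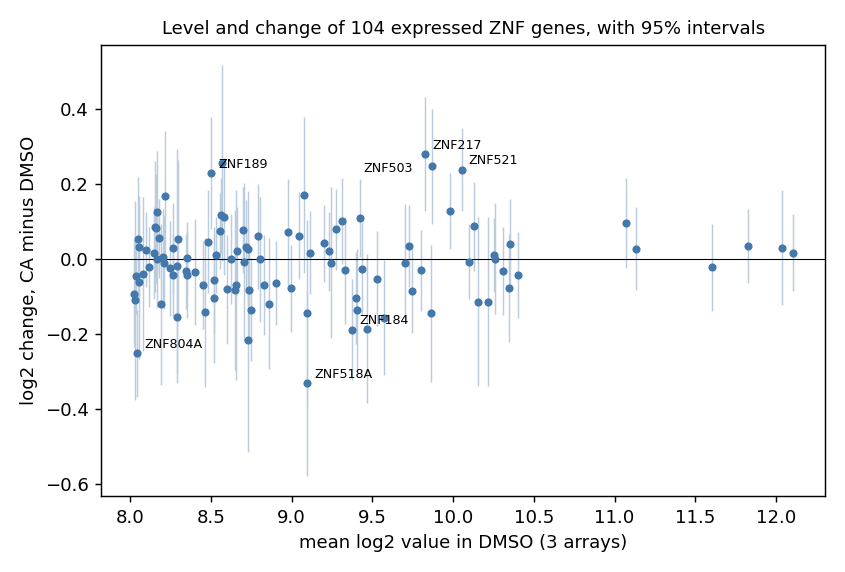
Log2 change, CA minus DMSO (y axis), against the mean log2 value of the 3 DMSO arrays (x axis) for the 104 expressed ZNF genes, with 95% confidence intervals as bars. Changes scatter on both sides of 0 at every level, from -0.33 for ZNF518A to 0.28 for ZNF217, and the named genes have an unadjusted p under 0.02.

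In 23 members the groups did not overlap, that is, each CA value lay above or each lay below all DMSO values, 12 of them higher and 11 lower. As shares these are 11.5% and 10.6%. Over all genes 11.8% were higher and 7.53% lower in this way, and among genes with a DMSO mean of at least 8 the shares were 22.4% and 11.9%. The lower share of the members thus lay between both backgrounds, and the higher share lay near that of all genes and under that of the genes of like level. These shares were not tested against each other.

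Among the members higher in CA were a pair of regulators with known corepressor partners. ZNF521, a regulator of early blood progenitors, had log2 values of 10.05, 10.01 and 10.10 in DMSO and 10.33, 10.26 and 10.28 in CA. All its CA values lay above its DMSO values, with a 1.18-fold ratio (95% confidence interval 1.09 to 1.27, adjusted p = 0.103). A second probe set differed by 0.14 on the log2 scale. ZNF217, an oncogene amplified in breast cancer whose protein sits in corepressor complexes, had values of 9.79, 9.93 and 9.75 in DMSO and 10.13, 10.14 and 10.04 in CA. The groups were apart here too, with the largest positive change of all members at 0.28 ± 0.063 (SE) and a ratio of 1.21 (1.09 to 1.35, adjusted p = 0.159). ZNF217 had 1 probe set.

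ZNF503, a transcriptional repressor of the NLZ family, had log2 values of 9.91, 9.91 and 9.79 in DMSO and 10.18, 10.15 and 10.02 in CA. Its groups did not overlap, and its log2 change was 0.25 (adjusted p = 0.210), but its 3 other probe sets gave changes between -0.068 and -0.0036. ZNF189, a C2H2 protein, had values of 8.47, 8.59 and 8.45 in DMSO and 8.81, 8.71 and 8.66 in CA, a ratio of 1.17 (1.06 to 1.30, adjusted p = 0.236). The next in size were smaller. ZNF627 had a log2 change of 0.13, ZNF559 of 0.12, ZNF622 of 0.11 and ZNF791 of 0.10, with adjusted p between 0.333 and 0.483. ZNF587B, named after its values were seen, had a change of 0.26 with overlapping groups (8.46, 8.74 and 8.51 against 8.85, 8.98 and 8.65). Its _x_at probe set can also bind RNA of closely related genes such as ZNF587.

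The largest falls among members with groups apart were, with all 6 arrays, those of ZNF518A and ZNF804A. ZNF804A, a zinc finger gene known from schizophrenia genetics, had log2 values of 8.05, 8.03 and 8.06 in DMSO and 7.86, 7.75 and 7.78 in CA. It had the smallest p of all members, with a ratio of 0.840 (95% confidence interval 0.776 to 0.910, adjusted p = 0.0986). Its DMSO mean of 8.05 lay just above the level threshold, and its CA mean was 7.79. By the mean over all 6 arrays it was not a member. ZNF518A had values of 9.11, 9.12 and 9.05 in DMSO and 8.90, 8.86 and 8.53 in CA. Its log2 change of -0.33 ± 0.10 (SE) was the largest negative one of all members with all 6 arrays (adjusted p = 0.303), and its other probe sets gave changes of -0.12 and 0.049. Without CA replicate 3, its lowest array, the change was -0.21, and that of ZNF804A was then larger in size, at -0.24.

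ZNF184 had log2 values of 9.37, 9.43 and 9.32 in DMSO and 9.24, 9.21 and 9.11 in CA, a ratio of 0.878 (0.800 to 0.963, adjusted p = 0.278). ZNF124 had values of 9.01, 8.59 and 8.59 in DMSO and 8.57, 8.54 and 8.42 in CA. Its groups were apart by little, since 2 of its DMSO values lay next to the CA values, and its change of -0.22 had an interval from -0.51 to 0.081. Without DMSO replicate 1, its highest array, the change was -0.073 (adjusted p = 0.833). The other probe set of ZNF124, at a mean log2 of 5.39 over the arrays, gave a change of -0.24. ZNF367, ZNF564, ZNF24 and ZNF140, the last a KRAB repressor, had log2 changes of -0.16, -0.16, -0.10 and -0.085, with adjusted p between 0.417 and 0.546. The remaining members with groups apart were ZNF266, ZNF585A, ZNF664 and ZNF706 (higher) and ZNF322, ZNF507 and ZNF800 (lower), named after their values were seen, all with changes within 0.1 of 0.

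**Figure D3:**
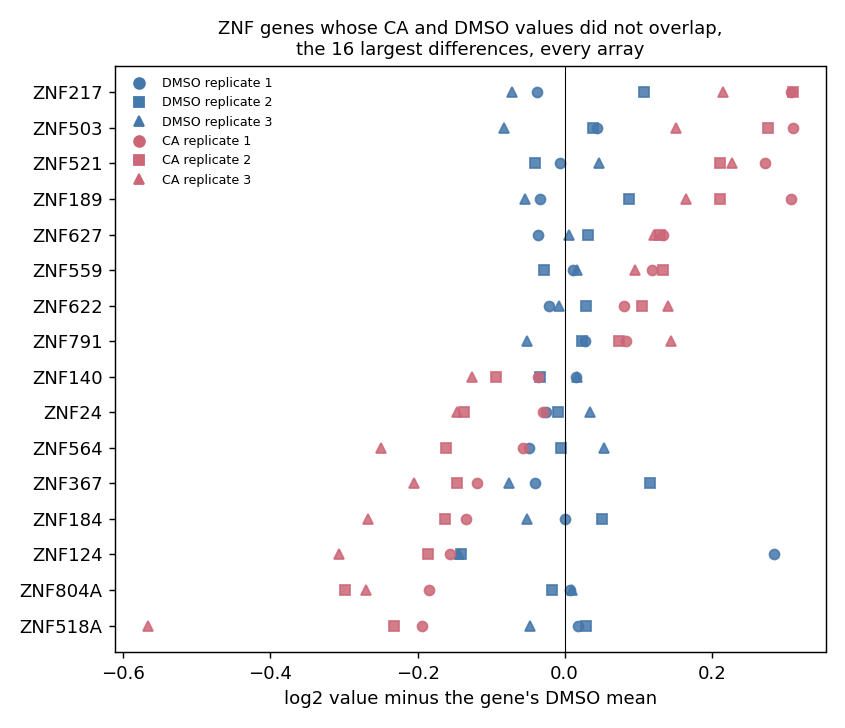
Log2 value of each array minus the DMSO mean of the gene (x axis) for the 16 ZNF genes (y axis) with the largest differences among those whose groups did not overlap; blue is DMSO, red is CA, and the marker shape gives the replicate number. CA values lie right of all DMSO values in the upper 8 genes and left of them in the lower 8, and CA replicate 3 of ZNF518A lies farthest left.

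The brightest members showed little difference at the probe sets used. ZNF207, a kinetochore protein that binds BUB3, had log2 values of 12.10, 12.09 and 12.12 in DMSO and 12.09, 12.12 and 12.15 in CA. Its ratio was 1.01 (0.943 to 1.09, adjusted p = 0.913), although its 8 other probe sets gave log2 changes between -0.35 and 0.044. ZNF146, a protein made up almost wholly of zinc fingers, had values of 12.08, 12.05 and 11.99 in DMSO and 12.12, 12.13 and 11.95 in CA (ratio 1.02, 0.918 to 1.14, adjusted p = 0.893). Its other probe set, at a mean log2 of 7.74, gave a change of 0.15. ZNF706 had a ratio of 1.02 and ZNF121 of 0.984, with adjusted p of 0.790 and 0.894. Levels of different genes are from different probe sets and are not compared.

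Members with a described role were read as 3 groups. Of 14 measured at this level as partners of corepressors or activators, 0 passed. ZNF521 and ZNF217 were higher and ZNF518A and ZNF24 lower with groups apart, and the median log2 change was -0.032. The other 10 had overlapping groups, among them ZNF143, an activator of small nuclear RNA genes, with values of 9.18, 9.25 and 9.25 in DMSO and 9.26, 9.23 and 9.26 in CA. Of 11 members that act on RNA, ribosomes, mitosis, ubiquitin or SUMO, 0 passed and the median was 0.017. ZNF622, which takes part in maturation of the large ribosomal subunit, had values of 9.40, 9.45 and 9.42 in DMSO and 9.51, 9.53 and 9.57 in CA (ratio 1.08, adjusted p = 0.411). The nucleolar gene ZNF330 had a log2 change of 0.086 and the SUMO ligase gene ZNF451 of -0.044. The other probe set of ZNF330 gave 0.19, and the other probe sets of ZNF451 gave -0.0019 to 0.10. Of 15 measured ZNF genes listed for repression of retroelements, imprints or heterochromatin, ZNF765 and ZNF268 were members, with changes of -0.030 and -0.0083 (adjusted p = 0.837 and 0.983).

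CA replicate 3 was often the lowest array of a member. It was the lowest of the 6 arrays in 47 of 104 members, or 45.2%, against 34.2% of the genes with a DMSO mean of at least 8 and 20.8% of all genes. Its median deviation from the mean of each member was -0.055, while the other CA arrays had 0.019 and 0.027 and the DMSO arrays 0.0083, 0.027 and -0.022. For CA replicate 3 this median was -0.0094 in the genes with a DMSO mean of at least 8 and 0.017 over all genes. In CA replicate 3, 53 members lay below all their DMSO values, against 33 in CA replicate 1 and 22 in CA replicate 2. The same count was not made over other genes, and members were kept by their DMSO values. It is therefore not read as a trait of the members. Without CA replicate 3 the median log2 change of the members was 0.018 and 42.3% of them were below 0, beside 0.020 and 37.3% for the genes with a DMSO mean of at least 8. With all arrays the shares below 0 were 51.9% and 43.6%. No member passed without CA replicate 3, and the part of that array in the other values was not tested beyond this.

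**Figure D4:**
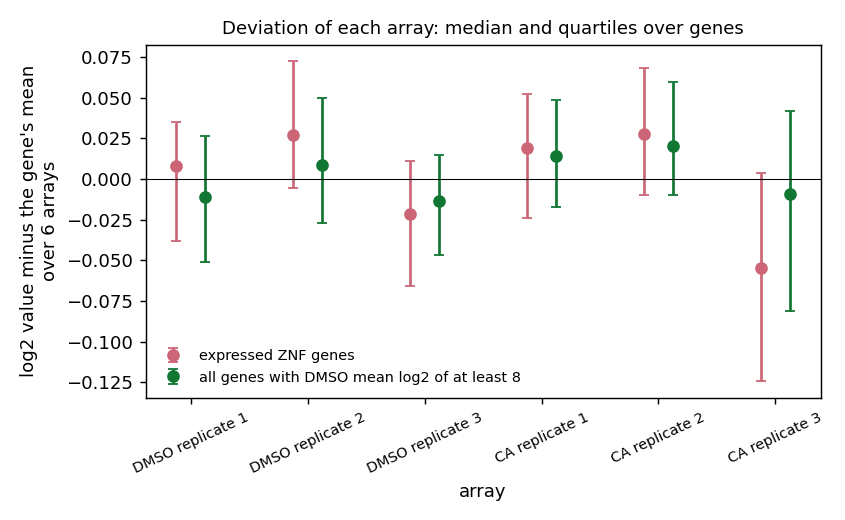
Median (points) and quartiles (bars) over genes of the log2 value minus the mean of the gene over 6 arrays (y axis), for each array (x axis), in the 104 expressed ZNF genes (red) and the 5963 genes with a DMSO mean log2 of at least 8 (green). CA replicate 3 has the lowest median of the ZNF genes, -0.055, and CA replicates 1 and 2 lie above 0.

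Other probe sets often differed in sign from the one used. Of the members, 75 had more than 1 probe set, and of their 144 other probe sets 69 had a change of the same sign as the one used. In 29 of the 75 members every other probe set had that sign, and 0 of the 144 passed in a fit over all named probe sets. Of the 19 other probe sets that also had a mean of at least 8, 11 had the same sign. The probe set used ended in _x_at, _s_at or _a_at in 32 members, a kind that can bind several transcripts, and these had a median change of 0.010 against -0.022 in the other 72. Values of closely related ZNF genes on such probe sets are uncertain for that reason.

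ZNF genes lie in clusters of related neighbours, most of all on chromosome 19. Of the 95 members with a RefSeq window, 34 lay on that chromosome (35.8%), against 7.07% of all genes with a window and 53.0% of the ZNF genes below the level threshold. The median log2 change was -0.021 on chromosome 19 and 0.00023 elsewhere. In the order of protein coding genes, 57 of 101 members stood next to another ZNF gene. There were 11 pairs of members next to each other, and the changes had the same sign in 5 of them. ZNF564 and ZNF490 were both lower, at -0.16 and -0.092, while ZNF490 and its other neighbour ZNF791 had opposite signs. Level and change were hardly related across members (r = 0.080 over 104 genes, which share the 6 arrays).

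The promoter windows of the members were described for 6 motifs, counted on both strands and once per gene. The GC box GGGCGG was present in 73.7% of the members, 64.6% of all genes with a window and 78.1% of those with a DMSO mean of at least 8. The ETS motif CCGGAAG was present in 35.8%, 16.6% and 26.5%, and the CCAAT box in 52.6%, 41.7% and 44.3%. The NRF1 motif GCATGCGC had shares of 10.5%, 4.88% and 7.80%, and TATAAA of 3.16%, 11.5% and 7.94%. For AAGATGGCG, a YY1 motif, they were 3.16%, 3.23% and 5.97%. In a count made after the values were seen, all 11 members that were lower with groups apart held a GC box, as did 6 of the 9 higher ones with a window. A gene counted when any of its windows held the box, and the same count was not made over other genes. It is therefore not read as a trait of the lower members. The median log2 change was -0.022 in the 70 members with a GC box and 0.024 in the 25 without, and -0.016 in the 34 with an ETS motif and -0.0012 in the 61 without. Median GC content was 62.8% in the members and 64.7% in the genes of like level.

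Related genes and the factors that act with ZNF proteins were read in the same fit. Of 398 ZNF genes below the threshold 0 passed in limma (unadjusted, 29 were higher and 18 lower), with a median log2 change of 0.0045. For these unadjusted counts, at p under 0.05 in limma, the shares over all genes were 7.09% higher and 4.5% lower. Among the genes with a DMSO mean of at least 8 they were 10.8% and 4.7%. The values nearest the threshold were DMSO means of 7.94, 7.98 and 7.99 for ZNF407, ZNF215 and ZNF614 outside it, and 8.03, 8.03 and 8.04 for ZNF490, ZNF670 and ZNF275 inside it. Of 96 genes of the ZSCAN, ZKSCAN, ZBTB and ZFP families, which share the C2H2 finger with few exceptions, 0 passed (6 higher and 9 lower unadjusted; median -0.013). Of 30 measured genes of KRAB silencing 0 passed (3 higher and 2 lower unadjusted; median -0.010). TRIM28 had log2 values of 9.76, 9.73 and 9.65 in DMSO and 9.73, 9.63 and 9.63 in CA (adjusted p = 0.768). The methyltransferase genes DNMT3B and SETDB1 had changes of 0.26 and 0.13 (adjusted p = 0.0837 and 0.347). Of 29 genes of mRNA deadenylation and decay 0 passed in limma (0 higher and 4 lower unadjusted; median -0.010), with TOB1 at -0.26 and PNRC1 at -0.23 (adjusted p = 0.110 and 0.259).

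Labile regulator mRNAs, such as those of early response genes, were read as a list of other short-lived transcripts. The list was chosen with earlier results of these data known, so its counts cannot show how short-lived transcripts behave in general. Of 58 measured, 5 rose and 6 fell in limma with adjustment over all genes, and the median log2 change was 0.053. The shares over all genes were 0.839% higher and 0.0556% lower. The cytokine gene TNF rose, from 7.06, 7.20 and 7.14 in DMSO to 8.36, 8.36 and 8.18 in CA (adjusted p = 0.00419). SERTAD1, a regulator of cell cycle transcription, fell, from 7.79, 7.81 and 7.87 to 7.35, 7.29 and 7.36 (adjusted p = 0.0136). SERTAD1 passed without CA replicate 3 but not without any other single array, and TNF did not pass without DMSO replicate 3 (adjusted p = 0.0508). Over all genes 177 passed, and between 1 (without DMSO replicate 3) and 112 (without CA replicate 3) did with 1 array left out. With the groups of each gene apart, these changes were larger than any among the expressed ZNF genes. Of 48 long-lived housekeeping mRNAs 0 passed in limma, 0 had an unadjusted p under 0.05, and the median was 0.011. RPL8 and B2M, the first by p, had changes of 0.062 and -0.063 (adjusted p = 0.623 and 0.637). The quartiles of the expressed ZNF genes, -0.072 and 0.047, lay nearer 0 than those of the labile regulators, -0.15 and 0.22.

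**Figure D5:**
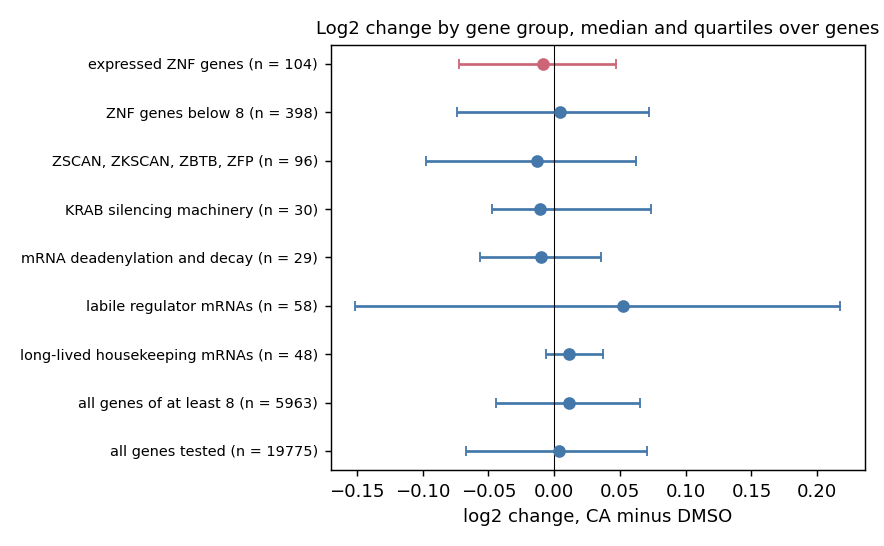
Median (points) and quartiles (bars) of the log2 change, CA minus DMSO (x axis), for the 104 expressed ZNF genes (red) and 8 other groups of genes (blue). The medians of the ZNF genes, the C2H2 families and the silencing and decay genes lie within 0.02 of 0, and the labile regulator mRNAs have the widest quartiles.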

How the data were processed

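Total RNA (100 ng per sample) was labelled with a 3' priming Affymetrix kit, per the labels' protocols. These name a pair of isolation reagents without saying which sample had which; scan dates and batches are likewise not given in the sources used here. Deposited by the authors was 1 table of log2 values, obtained with RMA and affy per the submitters' processing notes. RMA normalises arrays to each other, so it removes a shift common to all genes and can compress dim ones. Values were used as deposited.

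Of 54613 probe sets that were not controls, 41091 had 1 gene symbol, 1801 several and 11721 none in the platform annotation; only the first were named. CA was compared with DMSO over 19775 genes with limma 3.58.1 in R 4.3.3 (lmFit, eBayes, two-sided, Benjamini-Hochberg over all genes, adjusted p under 0.05), tested on simulated data. With 3 against 3 arrays an exact permutation test of 1 gene cannot go below p = 0.1. Their number limits the precision.

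The members and lists were chosen with earlier results of these data known. Named members were those past the threshold, the 8 highest and 8 lowest changes with groups apart, the 4 brightest and up to 4 by p of each role list; of each other list the first 2 by p. The alternatives were other level thresholds, probe set choices, a filter on dim genes, an intensity trend, array weights, centring, the replicate block and leaving out each array. Domains were not classified here.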

Additional observations from a re-analysis of the deposited data

How the results depend on the processing

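With 3 against 3 arrays and changes of this size, the array number limits these results. Of 16 alternatives, 14 gave 0 members past the threshold. Limiting the fit to genes of mean log2 of at least 6, and so to fewer genes, gave 2 higher and 1 lower. An intensity trend with a robust fit gave 3 higher and 1 lower. The cause was not tested for either setting. With the replicate number as a block, which the labels do not describe as a pairing, 0 members were higher and 0 lower, and calls over all genes went from 177 to 6; deviations of same-numbered arrays correlated at 0.041, 0.22 and 0.25, and CA replicate 1 correlated better with DMSO replicate 2 (0.093) than with its own number.

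The median log2 change of the members ran from -0.029 to 0.018 when 1 array was left out and was 0.0068 with arrays centred on their medians, a setting that moved the median of all genes to 0.019. Of 309 recomputed values of 24 named members, 10 reversed, all in genes with changes near 0; the cause was not tested. With the mean of all probe sets ZNF451 had 0.015, ZNF207 -0.088 and ZNF268 0.027. ZNF207 had -0.080 without _x_at, _s_at and _a_at probe sets. ZNF268 had 0.036 with array weights and 0.0066 with centring. Leaving out 1 array gave ranges of -0.062 to 0.079 for ZNF268, -0.046 to 0.0033 for ZNF121 and -0.0017 to 0.088 for ZNF146.

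The labile regulator SERTAD1 no longer passed with the replicate block (adjusted p = 0.0780) or without any 1 of DMSO replicates 1 to 3 or CA replicates 1 and 2 (0.0767 to 0.0993). TNF did not pass with the block (0.0604) or without DMSO replicate 3 (0.0508).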
